A study of Homo sapiens with 8 samples.

Results

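The genes described here encode the machinery of mitosis and the spindle checkpoint. They are the mitotic cyclins and kinases, the kinetochore and checkpoint proteins, the condensins, the proteins of the spindle and of cytokinesis, and 2 transcription factors that drive them. A fixed list of 53 gene symbols chose them, with no measured value in the rule, and 52 were found among the 13546 genes of the deposited count table. The list was made with earlier results of these data known. NUSAP1 is not analysed here. RNA came from tumours grown in nude mice, which lack T cells but keep other host cells, after injection of MDA-MB-231 cells, a human line established from a triple-negative breast cancer. The injected cells were CDK4WT in 4 tumours and labelled CDK4KO in the other 4, with cultures of both kept before injection in RPMI with HEPES, sodium pyruvate and FBS. The sources used here do not say how CDK4 was disrupted, whether CDK4KO is 1 clone, or whether each tumour came from its own mouse. The p-values therefore cover only the variation among these 8 libraries, which may be technical.

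CDK4 partners with D cyclins to phosphorylate RB, which releases E2F factors and lets a cell enter S phase. Genes of mitosis are switched on later, in G2, by the MuvB complex together with B-MYB (MYBL2) and then FOXM1. In resting cells the same genes are held down by the DREAM complex, which shares the MuvB core. Many of their promoters carry a cell cycle homology region, with the letters TTTGAA near the start of the gene, and CCAAT boxes upstream. The amount of their mRNA in a bulk sample is widely read as a sign of how many cells are cycling. In such a sample, fewer cells in G2 and mitosis and less RNA per cell cannot be told apart.

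Library totals ran from 27840883 to 33617977 counts. CDK4 mRNA itself stood at 115, 107, 116 and 112 CPM (counts of a gene relative to all counts of a library, scaled between libraries) in CDK4WT replicates 1 to 4 and at 111, 119, 125 and 134 CPM in CDK4KO replicates 1 to 4. It was thus not lower in the libraries labelled CDK4KO (log2 fold change, CDK4KO minus CDK4WT, 0.12 ± 0.06, SE; edgeR adjusted p = 0.477). TSPAN31, on the opposite strand, shares 43.2% of the CDK4 exon bases. Of markers that define the line, VIM, CD44, EGFR, AXL, CAV1 and ANXA1 were all measured, at summed levels of 10433 to 14598 CPM, while the table used here has no row for ESR1, PGR, CDH1 or KRT20. GATA3 and EPCAM, also low in the line, summed to 15.6 to 17.6 CPM. Of the marker lists for cell types of the host, 8 of 11 endothelial, 5 of 13 leukocyte, 6 of 10 fibroblast and pericyte, and 4 of 11 muscle and fat markers had rows. Whether their counts came from host cells or from the line was not tested. The sources used here do not say whether mouse reads were removed.

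The promoters of 6 members are shown. They are the named genes, by the rule given with the processing, that hold the cell cycle homology letters within 100 bases before the start of the gene. Each line gives the 100 bases before the RefSeq start (build GRCh38.p14), 5′ to 3′ on the strand of the gene, with TTTGAA in capitals.
CDC25C, chr5:138331805-138331904, minus strand: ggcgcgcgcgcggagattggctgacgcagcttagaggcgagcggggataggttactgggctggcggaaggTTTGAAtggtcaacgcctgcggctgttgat
PLK1, chr16:23678789-23678888, plus strand: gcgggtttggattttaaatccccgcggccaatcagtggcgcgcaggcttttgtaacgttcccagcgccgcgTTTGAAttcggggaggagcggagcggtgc
CDCA8, chr1:37692416-37692515, plus strand: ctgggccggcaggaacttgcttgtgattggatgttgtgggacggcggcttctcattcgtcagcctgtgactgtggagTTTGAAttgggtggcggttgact
MKI67, chr10:128126424-128126523, minus strand: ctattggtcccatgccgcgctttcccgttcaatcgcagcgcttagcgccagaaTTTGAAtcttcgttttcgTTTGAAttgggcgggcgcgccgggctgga
HMMR, chr5:163460532-163460631, plus strand: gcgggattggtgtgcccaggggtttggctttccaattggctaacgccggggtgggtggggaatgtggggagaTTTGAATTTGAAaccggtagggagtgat
PRC1, chr15:90994536-90994635, minus strand: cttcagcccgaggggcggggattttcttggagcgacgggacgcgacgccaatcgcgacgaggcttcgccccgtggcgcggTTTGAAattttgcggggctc

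In PLK1 the letters begin 29 bases before the start, in CDC25C 30, in CDCA8 23 and in PRC1 20. MKI67 and HMMR hold them at a pair of places, at 47 and 29 bases and at 28 and 22 bases. Every one of these 6 windows also holds CCAAT or its reverse, ATTGG. Promoter windows were found for 44 of the 52 members by symbol. TTTGAA or its reverse, TTCAAA, lay in those 100 bases in 16 of the 44 members, that is in 27.6% of their 58 windows, against 4.61% of 35116 promoters of all genes. CCAAT or its reverse lay there in 48.3% of member windows and 18.1% of all promoters, and TTTAAA, a variant of the homology letters that reads the same on both strands, in 13.8% and 4.06%. A match is a description of letters and not a mapped binding site.

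The first comparison asked whether mitosis genes differ between CDK4KO and CDK4WT tumours. None of the 52 members passed the quasi-likelihood test of edgeR (adjusted p under 0.05 over all genes), where 8 of 13546 genes (0.0591%) passed. The smallest adjusted p of a member was 0.348. At an unadjusted p of 0.05 there were 3 members of 52, or 5.77%, against 13.0% of all genes: CDC25B and BUB3 higher in CDK4KO (6.64% of all genes were past it and higher), and NUF2 lower (6.33%). DESeq2 called 0 members (4 at an unadjusted p of 0.05) and 2.33% of all genes, and limma voom with library quality weights called 0 members (7 at an unadjusted p of 0.05) and 2.10% of all genes. The share of members past the unadjusted threshold was thus below that of all genes with edgeR, with DESeq2 (7.69% against 13.4%) and with limma voom (13.5% against 20.8%).

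The members split evenly around no difference. Their median log2 fold change was -0.005, beside 0.004 over all genes, with 24 of 52 above 0 (46.2%) where 51.2% of all genes were. Standard errors of the members ran from 0.05 to 0.25 on the log2 scale, with a median of 0.09. In 49 of 52 members (94.2%) the 95% interval of the log2 fold change lay between -0.5 and 0.5, against 76.7% of all genes. The exceptions were NUF2, HMMR and PRC1. Intervals are wider at low counts, and 50 of the 52 members but 9880 of 13546 genes averaged at least 10 CPM. The shares were not compared at matched levels.

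**Figure D1:**
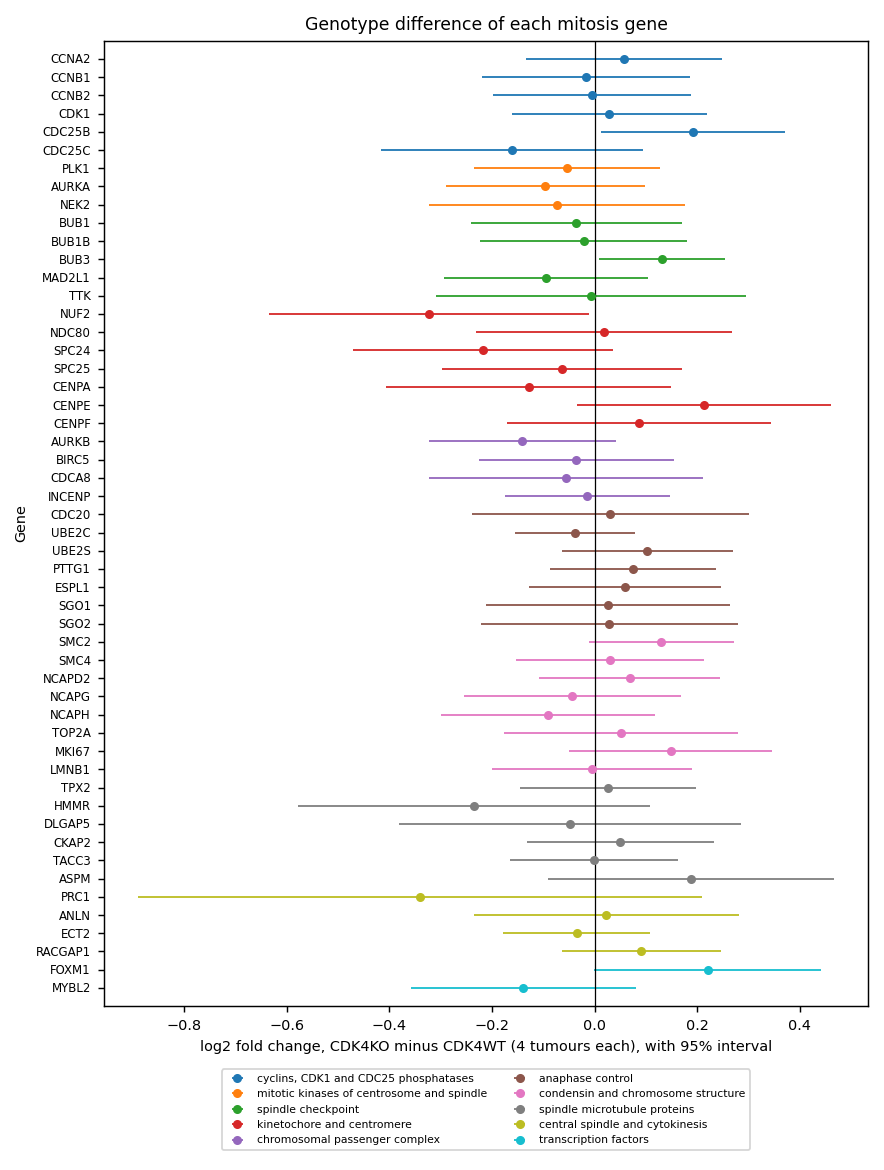
Log2 fold change (x axis, CDK4KO minus CDK4WT, 4 tumours each) of the 52 mitosis genes (y axis), coloured by role, with 95% intervals from the edgeR fit as bars. The interval holds 0 in 49 genes, and those of CDC25B, BUB3 and NUF2 do not reach it.

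Among cyclins, CDK1 and the CDC25 phosphatases, which together switch on entry into mitosis, 3 of 6 had a positive fold change and none passed the test. CCNB1, the cyclin B1 that binds CDK1, stood at 147, 153, 137 and 110 CPM in CDK4WT and 137, 144, 130 and 130 CPM in CDK4KO, replicates 1 to 4. The CDK4KO tumours fell inside the range of the CDK4WT tumours, and replicate 4 of CDK4WT was the lowest of the 8. CDK1 (log2 fold change 0.03 ± 0.09), CCNA2 (0.06 ± 0.09) and CCNB2 (-0.01 ± 0.09) likewise had their lowest level in CDK4WT replicate 4. CDC25B, a phosphatase that activates CDK1 at the centrosome, was the member of this role with the smallest p. It stood at 169, 184, 167 and 173 CPM in CDK4WT and at 202, 176, 185 and 229 CPM in CDK4KO, so that CDK4KO replicate 2 lay below CDK4WT replicate 2 (log2 fold change 0.19 ± 0.08, edgeR adjusted p = 0.35). It was the only member in which CDK4WT replicate 4 was not the lowest of the CDK4WT tumours. CDC25C, a second CDK1-activating phosphatase, was low, at 9.05 to 12.8 CPM in CDK4WT and 9.24 to 10.9 CPM in CDK4KO (-0.16 ± 0.12).

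The 3 mitotic kinases of centrosome and spindle had negative fold changes, and none passed. PLK1, which acts at centrosomes, kinetochores and the midbody, stood at 82.9, 88.4, 83 and 66.6 CPM in CDK4WT and 73.6, 80.9, 76.3 and 78.3 CPM in CDK4KO (log2 fold change -0.05 ± 0.08). AURKA, which matures centrosomes and builds the spindle with TPX2, stood at 102, 106, 94 and 77.6 CPM and at 93.2, 86.4, 87.9 and 87.4 CPM (-0.10 ± 0.09). In both genes all CDK4KO tumours lay below CDK4WT replicates 1 to 3 and above CDK4WT replicate 4. NEK2, a kinase of centrosome separation, had a fold change of -0.07 ± 0.11.

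Spindle checkpoint proteins delay anaphase until every chromosome is attached. BUB3, which brings BUB1 and BUB1B to kinetochores, was the 1 member of 52 (1.92%, against 7.68% of all genes) in which the genotypes did not overlap. Of all genes 3.87% did so with CDK4KO higher, as BUB3 did, and 3.81% with CDK4KO lower. It stood at 318, 345, 338 and 318 CPM in CDK4WT and 373, 363, 354 and 355 CPM in CDK4KO. The means were 330 ± 13.9 and 361 ± 8.97 CPM (SD, n = 4 each), a log2 fold change of 0.13 ± 0.06 (edgeR adjusted p = 0.348). Its partners BUB1 and BUB1B were at -0.04 ± 0.09 and -0.02 ± 0.09, the checkpoint kinase TTK at -0.01 ± 0.14, and MAD2L1, which inhibits CDC20, at -0.09 ± 0.09. None of the 5 checkpoint genes passed.

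Kinetochore and centromere genes were the most uneven role. NUF2, a subunit of the NDC80 complex that binds microtubules, had 36.9, 34.2, 31 and 24.9 CPM in CDK4WT and 30.3, 25.7, 19.9 and 25.7 CPM in CDK4KO. Its lowest tumour was CDK4KO replicate 3, and the genotypes overlapped (log2 fold change -0.32 ± 0.14, edgeR adjusted p = 0.367). SPC24, a second subunit of that complex, stood at 37, 38.7, 38.8 and 30.2 CPM and at 35, 25.8, 28.8 and 34.9 CPM (-0.22 ± 0.12). The other subunits, NDC80 and SPC25, were at 0.02 ± 0.11 and -0.06 ± 0.11, so 4 proteins that work as 1 complex had fold changes from -0.32 to 0.02. CENPE, a kinesin that carries chromosomes to the spindle equator, had a positive value, at 48.9, 62.1, 52.9 and 44.5 CPM in CDK4WT and 54.1, 65.9, 67.6 and 53.8 CPM in CDK4KO (0.21 ± 0.11). CENPF, a large outer kinetochore protein, was at 0.09 ± 0.12 and CENPA, the histone H3 variant that marks centromeres, at -0.13 ± 0.13.

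All 4 genes of the chromosomal passenger complex, which corrects faulty attachments and guides cytokinesis, had fold changes below 0 without passing. AURKB, its kinase, had nearly 1 level in CDK4KO, at 59.1, 58.9, 59.2 and 58.6 CPM (58.9 ± 0.27, SD, n = 4). In CDK4WT it stood at 70, 70.5, 65.9 and 53.6 CPM (65.0 ± 7.89), so that CDK4WT tumours lay on both sides of the CDK4KO tumours (log2 fold change -0.14 ± 0.08, edgeR adjusted p = 0.511). CDCA8, also called borealin, was at -0.06 ± 0.12, BIRC5, also called survivin, at -0.04 ± 0.09 and the scaffold INCENP at -0.01 ± 0.07. 

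Of 7 genes of anaphase control, 6 had a positive fold change, where 51.2% of all genes did. UBE2C and UBE2S, the ubiquitin-conjugating enzymes that work with the anaphase-promoting complex, differed in how much they varied. UBE2C stood at 134 to 149 CPM over all 8 tumours and had the smallest spread of any member (SD 0.05 on the log2 scale). UBE2S ran from 107 to 135 CPM in CDK4WT and from 125 to 142 CPM in CDK4KO (log2 fold change 0.10 ± 0.08). PTTG1, the securin that holds separase back, was at 0.07 ± 0.07, its partner ESPL1, the separase, at 0.06 ± 0.09, and CDC20, the activator of the complex, at 0.03 ± 0.12. SGO1 and SGO2, which protect cohesin at centromeres, were both at 0.03 ± 0.11. Without CDK4WT replicate 4, CDC20, SGO1 and SGO2 fell below 0 (-0.09, -0.07 and -0.08). UBE2S, PTTG1 and ESPL1 stayed above 0 in that fit.

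Condensin subunits fold chromosomes for mitosis, and SMC2, SMC4, NCAPD2, NCAPG and NCAPH had fold changes of 0.13 ± 0.06, 0.03 ± 0.08, 0.07 ± 0.08, -0.04 ± 0.10 and -0.09 ± 0.09. Exons of LCORL overlap 33.1% of the NCAPG exon bases, and those of IFT80 and TRIM59 overlap 25.6% of SMC4, on the opposite strand, so that these 2 counts are less certain where strand was not used. MKI67, the chromosome surface protein Ki-67 and a common marker of proliferation, had 313, 350, 328 and 254 CPM in CDK4WT and 326, 343, 357 and 353 CPM in CDK4KO. Replicate 4 of CDK4WT lay below the other 7 tumours, which overlapped between genotypes (0.15 ± 0.09, edgeR adjusted p = 0.527). TOP2A, which untangles DNA, stood at 378, 356, 362 and 276 CPM and at 377, 393, 325 and 327 CPM (0.05 ± 0.10). LMNB1, the nuclear lamin B1, averaged 130 ± 17.0 CPM in the CDK4WT tumours and 130 ± 4.97 CPM in the others (SD, n = 4 each).

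Spindle microtubule proteins were split, with 3 of 6 above 0. TPX2, which activates AURKA and nucleates microtubules, was at 0.03 ± 0.08, TACC3 at -0.001 ± 0.07, CKAP2 at 0.05 ± 0.08 and DLGAP5 at -0.05 ± 0.15. ASPM, a protein of the spindle poles, had 80.7, 78.9, 75.9 and 52.2 CPM in CDK4WT and 73.2, 82.2, 90.4 and 82 CPM in CDK4KO (0.19 ± 0.13). Its level in CDK4WT replicate 4 was 66.5% of the mean of the other CDK4WT tumours. HMMR, a spindle assembly factor, stood between 6.52 and 8.82 CPM in CDK4WT and between 4.93 and 8.09 CPM in CDK4KO (-0.23 ± 0.16). Of the cytokinesis genes, ECT2, the exchange factor that activates RhoA at the equator, was at -0.04 ± 0.06. RACGAP1, a subunit of centralspindlin, was at 0.09 ± 0.07 and the scaffold ANLN at 0.02 ± 0.12. RhoA at the equator drives a contractile ring of actin and myosin II, the system named in the study's title.

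PRC1, which bundles the microtubules of the central spindle, was measured on few reads. It had 0.718 to 1.65 CPM over the tumours and as few as 21 counts in 1 library (log2 fold change -0.34 ± 0.25). Per kilobase of exon in GENCODE 29 it stood at 0.222 CPM, the lowest of the members, followed by HMMR at 1.87 and CDC25C at 3.17. The highest were UBE2C at 110, TPX2 at 65.6 and TOP2A at 54.3 CPM per kilobase. Other annotated genes share 58.4% of the PRC1 exon bases, 57.6% on its own strand, against 2.9% for HMMR. The sources used here do not say how reads of shared exons were counted.

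FOXM1 and MYBL2, the transcription factors of this program, stood on opposite sides of 0. FOXM1 had 129, 142, 137 and 107 CPM in CDK4WT and 128, 152, 152 and 167 CPM in CDK4KO (log2 fold change 0.22 ± 0.10, edgeR adjusted p = 0.385). Its highest tumour was CDK4KO replicate 4 and its lowest CDK4WT replicate 4, while CDK4KO replicate 1 lay among the CDK4WT tumours. MYBL2 had 50.9, 47.9, 51.2 and 38.9 CPM in CDK4WT and 39.8, 40.1, 42.7 and 48.9 CPM in CDK4KO (-0.14 ± 0.10).

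Across tumours the members varied together, with a shared low in 1 CDK4WT tumour. All 52 members were below their own 8-tumour mean in CDK4WT replicate 4, and 42 (80.8%) had their lowest value of all 8 tumours there, against 13.6% of all genes. Within CDK4WT that tumour was the lowest in 51 of 52 members (98.1%), against 31.1% of all genes. Averaged over members, log2 CPM minus the mean of each gene was 0.07, 0.13, 0.06 and -0.25 in CDK4WT replicates 1 to 4. In CDK4KO it was 0.02, 0.05, -0.04 and -0.03. On the same scale the median of all genes lay between -0.0020 and 0.0024 in every tumour, where the scaling between libraries holds it near 0. Summed over the members, the level was 4540 CPM in CDK4WT replicate 4 and 5381 to 5779 CPM in the other 7 tumours.

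**Figure D2:**
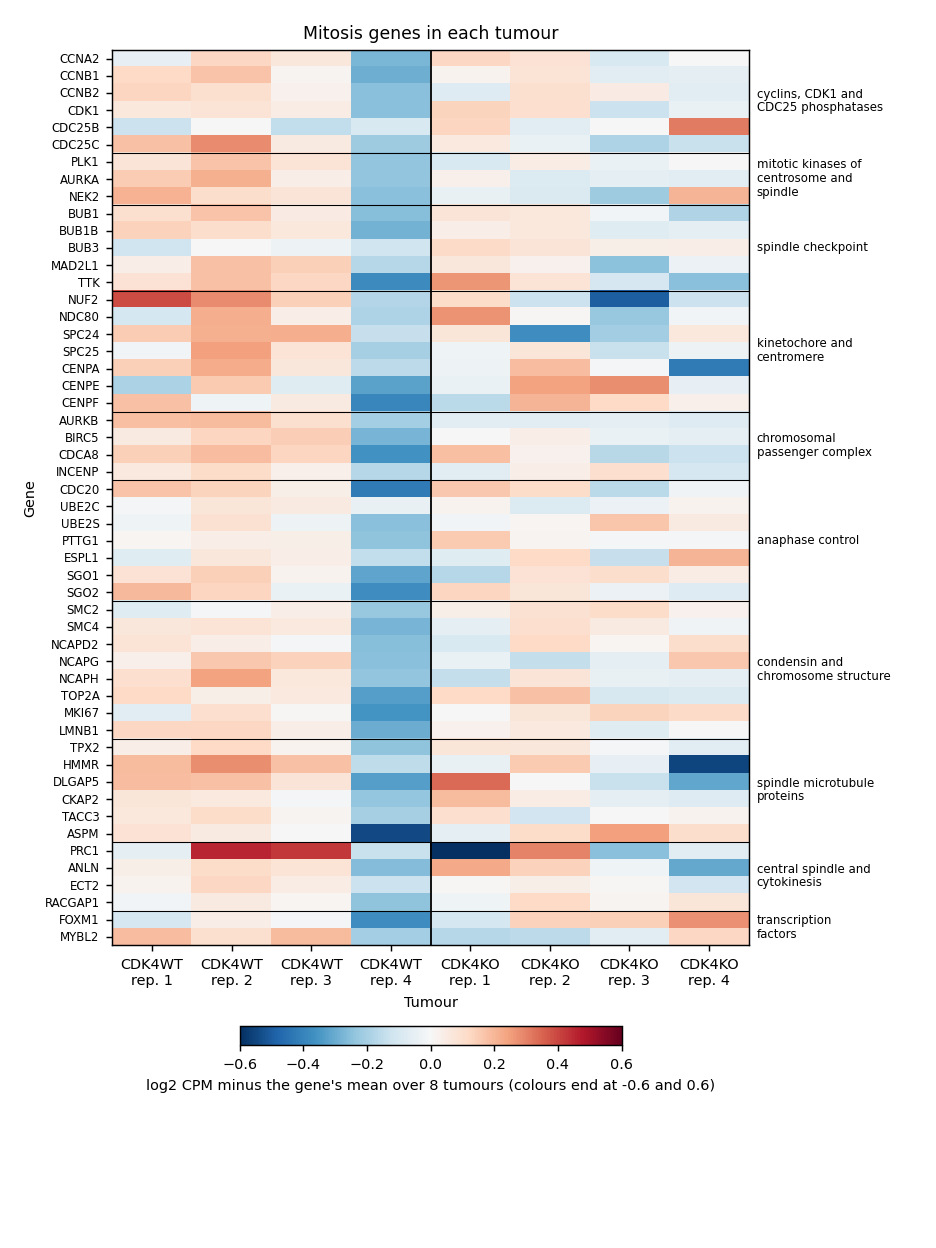
Log2 CPM of each of the 52 mitosis genes (rows, grouped by role) in each tumour (columns), minus the mean of that gene over the 8 tumours, with blue below and red above the mean. The CDK4WT replicate 4 column is blue in all rows, and no such column appears in CDK4KO.

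CDK4WT replicate 2 was the highest of the 8 tumours in 21 members (40.4%), against 8.76% of all genes, and 49 of 52 were above their mean there. The spread of log2 CPM was larger in CDK4WT than in CDK4KO in 42 of 52 members (80.8%), against 32.5% of all genes. With CDK4WT replicate 4 left out of that spread, the same held for 11 members (21.2%) and for 23.1% of all genes. Among CDK4KO tumours no replicate stood out to that degree: replicate 1 was the highest in 21 members (40.4%, against 30.1% of all genes), replicate 2 in 17 (32.7%, against 21.1%), and replicates 3 and 4 were each the lowest in 16 (30.8%, against 20.7% and 27.6%).

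Every role was low in CDK4WT replicate 4, with role means from -0.29 (the transcription factors) to -0.19 (central spindle and cytokinesis). All 8 condensin and chromosome structure genes, all 4 passenger genes and all 3 mitotic kinases had their lowest value there. Of the 7 kinetochore and centromere genes 3 did, and for the others CDK4KO replicates were lower still. UBE2C, BUB3 and CDC25B were nearest to the other tumours, at 94.4%, 95.3% and 99.9% of the mean of the other CDK4WT tumours, while ASPM, CDC20, CDCA8 and TTK were at 66.5%, 68.8%, 70.1% and 70.2%. CDC20 had 120, 117, 109 and 79.6 CPM in CDK4WT and 119, 115, 95.7 and 105 CPM in CDK4KO. The 16 members with TTTGAA in the 100 bases before the start averaged -0.25 in that tumour, as did the 28 with a known window and no such letters.

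Other genes of mitosis, taken from lists that share no gene with the members, were low in the same tumour to differing degrees. Of 26 other spindle and cytokinesis genes, such as kinesins and CEP55, 20 (76.9%) were lowest in CDK4WT replicate 4, at a mean of -0.24. Of 34 other kinetochore and centromere genes 19 (55.9%) were, at -0.17. A further list of 17 held genes of the anaphase-promoting complex, the ubiquitin ligase that ends mitosis. It also held FZR1, FBXO5 and UBE2D1, which act with or on that complex. Of these 17 genes, 3 (17.6%) were lowest in CDK4WT replicate 4, at a mean of 0.006. Cohesin genes and the DREAM and MuvB complex lay between, at -0.10 and -0.09.

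**Figure D3:**
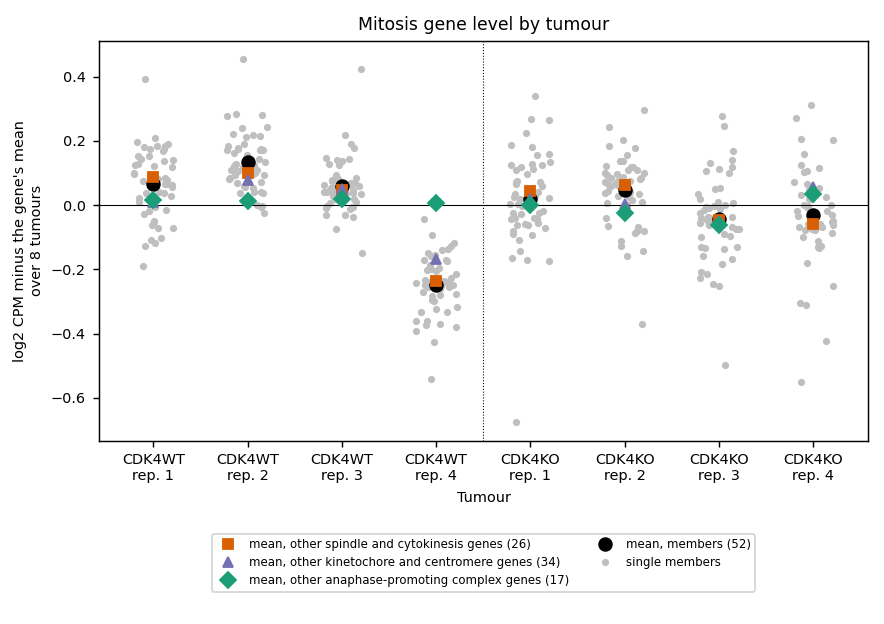
Log2 CPM minus the mean of each gene over 8 tumours (y axis) by tumour (x axis) for the 52 members (grey points) with their mean (black), and the means of 3 further lists of mitosis genes. In CDK4WT replicate 4 the members average -0.25 and the anaphase-promoting complex list 0.006.

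Values of other cell types beside this pattern were as follows. In CDK4WT replicate 4 the summed markers of endothelium (372 CPM) and of fibroblasts and pericytes (958 CPM) lay inside the range of the other CDK4WT tumours, while the summed leukocyte markers (17.7 CPM) were the lowest of the 8 tumours. Of the 5 leukocyte markers 2 were lowest there, CSF1R, which made up 9.88 CPM of the sum, and LYZ, while PTPRC, AIF1 and CD14 were lowest in other tumours. Within CDK4WT, PTPRC and AIF1 were also lowest in replicate 4, and CD14 was lowest in replicate 2. The summed markers of the line were the highest of the 8 tumours there, at 14598 CPM, of which VIM made up 11510 CPM. VIM, CD44 and ANXA1 were highest there, but EGFR was the lowest of the 8 tumours and AXL the lowest of the CDK4WT tumours. PTPRC, CSF1R, AIF1, CD14 and LYZ were the leukocyte markers measured, and the table used here has no row for CD68, ITGAM or CD3E. The library held 29545975 counts, inside the range of the others. The part of these differences in the level of the mitosis genes was not tested. The sum of the endothelial markers did not overlap between genotypes, at 334 to 375 CPM in CDK4WT and 396 to 463 CPM in CDK4KO. Of its genes 0 of 8 passed the test. The list, which holds ROBO4, ESAM and MMRN2, was chosen with earlier results of these data known. The separation of the sum is therefore no independent evidence of a genotype difference. ROBO4 alone stood at 100 to 115 CPM in CDK4WT and 132 to 188 CPM in CDK4KO. Of the 8 genes 3 did not overlap, ROBO4, ESAM and MMRN2, where 7.68% of all genes did not in either direction. The other 5 overlapped, with TIE1 at a log2 fold change of -0.19. CDH5, CLDN5 and EMCN have no row in the table used here. The muscle and fat markers ACTA1, DES, TTN and PLIN1 had log2 fold changes of -1.21, -1.33, -0.32 and -0.91. Of these 4 genes 0 passed the test, and in 0 of them the genotypes did not overlap.

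The median over members moved with that tumour. Without CDK4WT replicate 4 the median fold change of the members was -0.08 and 11 of 52 were above 0, against -0.005 and 24 with all tumours. At an unadjusted p of 0.05 there were then 9 members, all lower in CDK4KO (17.3%, against 11.7% of all genes in either direction, 5.81% higher and 5.87% lower), and 0 passed over all genes, where edgeR called 0 genes. They were CDC25C, PLK1, AURKA, NUF2, SPC24, AURKB, BIRC5, NCAPH and MYBL2. The genotypes did not overlap in 8 members with CDK4KO lower (15.4%, against 6.04% of all genes) and in BUB3 with CDK4KO higher (6.42% of all genes). The tumour left out was the lowest CDK4WT tumour in 51 of 52 members, against 31.1% of all genes. Leaving it out therefore raises the CDK4WT mean of nearly all members. These shares are thus no independent evidence of a genotype difference. AURKB had the smallest p of the members in that fit (log2 fold change -0.23 ± 0.05, edgeR adjusted p = 0.178), and NUF2 was at -0.43 ± 0.13. Without CDK4WT replicate 2, the highest tumour, the median turned to 0.04 with 36 members above 0, and 5 reached an unadjusted p of 0.05 (9.62%, against 10.9% of all genes). Leaving out any of the other 6 tumours gave medians between -0.03 and 0.02 and 20 to 31 members above 0.

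**Figure D4:**
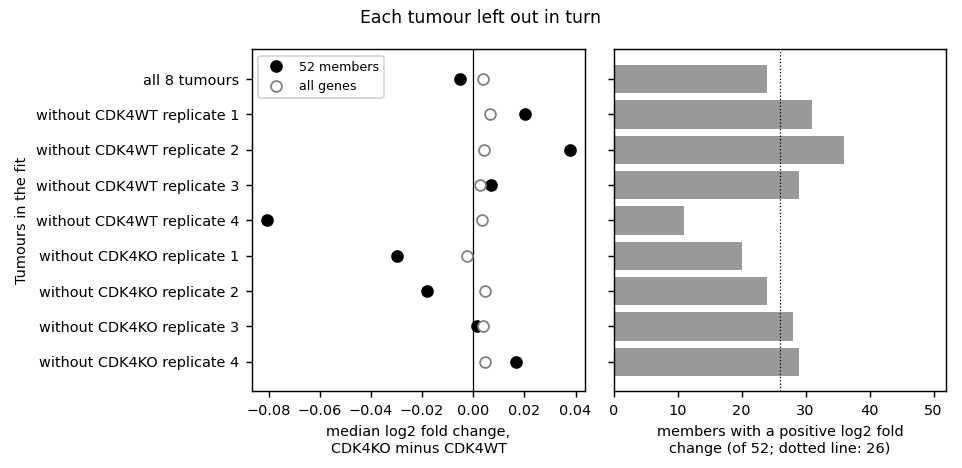
Median log2 fold change (left, CDK4KO minus CDK4WT) of the 52 members (filled) and of all genes (open), and the number of members above 0 (right), with all 8 tumours and with each left out in turn. The members' median is lowest without CDK4WT replicate 4 (-0.08) and highest without CDK4WT replicate 2 (0.04). The scaling between libraries holds the median of all genes near 0 in each fit.

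With all 8 tumours, members with long exons had higher fold changes than those with short exons. The 13 members with the longest exons (6022 to 12807 bases in GENCODE 29) had a median log2 fold change of 0.07, with 11 above 0. In the 3 shorter groups, of 13 members each, the medians were -0.04, -0.05 and -0.01, with 4, 4 and 5 above 0. Spearman's rho across the 52 genes was 0.48, beside 0.11 across 13455 genes of the table and 0.14 across the 124 other mitosis genes. Genes are not independent replicates, these values come from the same 8 libraries, and no test was made. Over 20 other fits the members' rho ran from 0.40 to 0.53. The position of the longest group above 0 rested on CDK4WT replicate 4. Without it the 13 longest had a median of -0.002 with 6 above 0, and the shorter groups had medians of -0.11, -0.16 and -0.08. Without CDK4WT replicate 2 the longest had a median of 0.09 with 13 above 0, and the shortest a median of 0.01 with 7 above 0. CENPE, ASPM and MKI67, among the longest members, had their highest level in CDK4KO replicate 3, and CENPF in CDK4KO replicate 2.

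**Figure D5:**
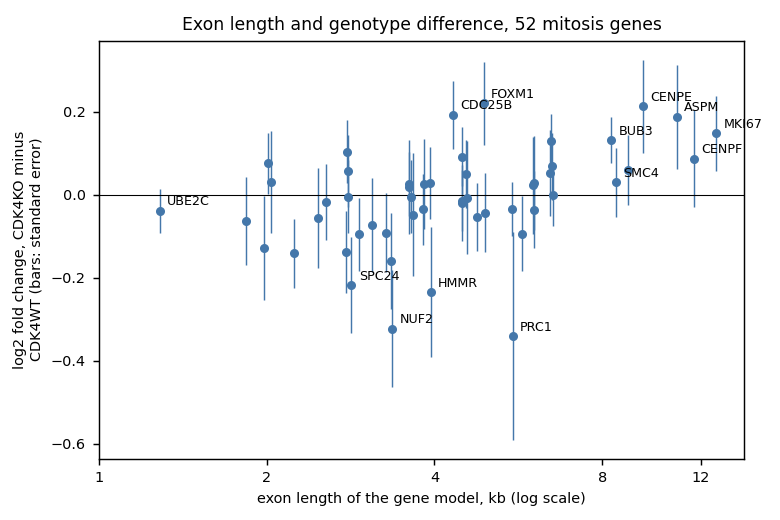
Log2 fold change (y axis, CDK4KO minus CDK4WT, bars are standard errors) against exon length in GENCODE 29 (x axis, kilobases, log scale) for the 52 mitosis genes. The 13 longest have a median of 0.07, and NUF2, SPC24 and HMMR, all under 4 kb, lie lowest beside PRC1.

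Of 124 other mitosis genes measured, 0 passed the test over all genes, with a median log2 fold change of 0.003 and 64 above 0. At an unadjusted p of 0.05 there were 8 (13.0% of all genes reached it). KNL1, the kinetochore scaffold that binds BUB1 and BUB3, had 41.5, 47.2, 42.3 and 31.2 CPM in CDK4WT and 45.2, 56.6, 58.8 and 44.3 CPM in CDK4KO (0.34 ± 0.13, edgeR adjusted p = 0.318). CENPI, a protein of the inner kinetochore, was at 0.23 ± 0.09. STAG1 and STAG2, the alternative cohesin subunits, were at 0.12 ± 0.05 and 0.15 ± 0.06. STAG1 stood at 71.4 to 74.7 CPM in CDK4WT and 78.3 to 81.1 CPM in CDK4KO, so that the genotypes did not overlap. Of all genes 3.87% did so with CDK4KO higher. PCCB, on the opposite strand, shares 21.2% of the STAG1 exon bases. ANAPC4 did not overlap either, but with CDK4KO lower (-0.12 ± 0.06), as 3.81% of all genes did. WEE1, the kinase that restrains CDK1, had 91.6, 87, 94.1 and 102 CPM in CDK4WT and 82.2, 94.5, 72.5 and 63.5 CPM in CDK4KO (-0.26 ± 0.11). Unlike the members, WEE1 was highest in CDK4WT replicate 4. DEPDC1B was at -0.22 ± 0.09.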

How the data were processed

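The authors deposited unnormalised counts per Ensembl gene for 8 tumour libraries, prepared with a Watchmaker mRNA kit, per the labels' protocols. The tools named are cutadapt, STAR 2.7.11a, featureCounts 2.0.4 and DESeq2 1.46.0, with the build hg38, per the submitters' processing notes. Neither the annotation release nor the strand setting is given in the sources used here. Every gene of the table exceeds 1 CPM in at least 4 libraries, and filterByExpr removed no more. The comparison of genotypes used edgeR 4.0.16 under R 4.3.3 (TMM scaling, robust quasi-likelihood test, Benjamini-Hochberg over 13546 genes, threshold 0.05). Fold changes are log2, CDK4KO minus CDK4WT, with the standard error implied by the F statistic, and intervals are 95%. Log2 CPM used a prior count of 2. DESeq2 1.42.0, limma 3.58.1 voom, other scalings and filters, a replicate block and each library left out were alternatives. The steps were tested on simulated data. The members and lists were chosen with earlier results of these data known. Named genes are CDK4, any member called, the 2 members of each of 10 roles with the smallest p, members whose genotypes separate, the 3 highest and 3 lowest by spread over tumours and by level per exon length, and 6 other mitosis genes with the smallest p. Further members were named after their values were seen. Exon lengths and overlaps come from GENCODE 29, the annotation supplied for the re-analysis and not one named by the submitters. Library totals were 27840883 to 33617977 counts, and the fewest counts of a member in a library were 21.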

Additional observations from a re-analysis of the deposited data

Results flagged for a closer look

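In groups of 4, a tumour was set apart when its gap to the nearest other exceeded Dixon's 95% critical share of the range of its group. Of 64 groups checked 5 held such a tumour, where chance gives about 1 in 20 (3.2 of 64). CDCA8 had 49.2 CPM in CDK4WT replicate 4, against 69.1 to 71.7 CPM in the other CDK4WT tumours. PTTG1 had 73.5 CPM in the same tumour, against 87.5 to 89.5 CPM, and 96.8 CPM in CDK4KO replicate 1, against 86.4 to 87.8 CPM in the other CDK4KO tumours. ASPM had 52.2 CPM in CDK4WT replicate 4, against 75.9 to 80.7 CPM. STAG2 had 210.0 CPM in CDK4WT replicate 3, against 193 CPM in the other 3.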

How the results depend on the processing

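The count of 0 members called held in all 20 alternatives. The count of all genes called, 8, became 315 with DESeq2, 285 with limma voom, 14 with library size only as the scaling, 20 without host marker genes, and 0 to 183 with 1 library left out. Removing pairs of libraries, a choice made after seeing the data, gave 3 genes without CDK4WT replicates 2 and 4 and 447 without CDK4KO replicates 1 and 4, where 1 other mitosis gene passed. Members above 0 numbered 11 to 36 with 1 library left out and 13 without CDK4WT replicates 2 and 4. Of 31 named genes, 28 kept their sign in every fit. Most of these genes were named for a small p, which favours a stable sign. That share therefore does not describe the members as a whole. With 1 library left out, log2 fold changes ran from -0.084 (without CDK4WT replicate 4) to 0.0019 (without CDK4WT replicate 2) in ECT2, from -0.046 to 0.071 (the same libraries) in TPX2, and from -0.042 (without CDK4WT replicate 4) to 0.10 (without CDK4WT replicate 1) in TOP2A. ECT2 was at 0.0012 without CDK4KO replicates 1 and 4, and TPX2 and TOP2A at -0.016 and -0.059 without CDK4WT replicates 2 and 4. The cause was not tested. With the replicate number as a block, 13 genes and 0 members passed, and the median of the members was 0.001. Same-numbered tumours shared only a number (correlations of deviations -0.031, -0.014, 0.003 and 0.194), and only the tumours numbered 4 correlated best with their own number. Counts of PRC1, from 21 per library, limit its precision.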
